A study of Drosophila melanogaster with 2 samples.

Results

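POU and Sox genes encode transcription factors that specify neurons, and accessible chromatin at 10 of them was examined in nuclei of the Drosophila melanogaster mushroom body (MB), the memory centre of the fly brain. The POU genes were nub, pdm2, pdm3, vvl and acj6, and the Sox genes were SoxN, D, Sox21a, Sox21b and Sox102F. These 10 of 13968 protein-coding genes were taken by symbol, with earlier results of the same data known. The TSS peak of a gene was chosen by its fold enrichment, as the highest one reaching to within 500 bp of an annotated transcription start site (TSS), and all peaks overlapping the gene span plus 10 kb on each side were counted as its window. Because fold enrichment selected these peaks and the genes were listed with results known, their heights are given as a description and no test was made on them.

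The data were 2 replicates of 1 group, naive male flies, kept singly for several days after eclosion, of the genotype w*;UAS-Unc84::2xGFP/+;R14H06-Gal4/+, so no comparison between conditions was possible. UAS-Unc84::2xGFP puts a GFP tag on the nuclear envelope, and R14H06-Gal4, an enhancer fragment of a cyclase gene, drives it mainly in Kenyon cells, the principal neurons of the MB, with sparse and weak labelling of other cells. Tagged nuclei were pulled from pools of 50 to 60 heads with anti-GFP beads, at the time that matches 1 h after training began in trained flies, and profiled by ATAC-seq, in which the Tn5 transposase inserts adapters into open DNA. Replicate 1 had 13868 peaks and replicate 2 had 14583 peaks, with median summit pileups of 219 and 216 fragments or cut sites.

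POU proteins bind DNA through a POU-specific domain joined to a homeodomain, and many recognise an octamer, ATGCAAAT. Sox proteins bind through an HMG box that bends DNA, at motifs with the core of AACAATG or AACAAAG. Both families act in neural stem cells and in newly born neurons, where they set lineage and identity. Among the fly members, acj6, pdm3 and vvl are known for sorting the wiring and receptor choice of olfactory neurons, and SoxN and D for forming the embryonic nervous system.

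All 10 genes had a TSS peak in both replicates, while 55.9% of all protein-coding genes did (7803 of 13968). The median fold enrichment of the 10 TSS peaks was 6.10 in replicate 1 and 6.04 in replicate 2, against 2.80 and 2.66 over all genes with a TSS peak. Fold enrichment is the authors' ratio of the summit pileup to a local background, and it is compared here within a replicate, as a percentile among the genes with a TSS peak in that replicate (7997 and 7995 genes). The median percentile of the 10 genes, averaged over the replicates, was 99.3, against 51.0 for all genes that had one in each replicate. Each TSS peak is the highest near any TSS, so a gene with more TSSs can have more peaks to choose from. The number of TSSs, a median of 2 in the 10 genes and 1 over all genes, was not matched. A mean percentile of at least 90 was reached by 7 of the 10 genes and by 5.53% of all protein-coding genes (772 of 13968). The POU genes had a median percentile of 99.8 and the Sox genes one of 98.7. In bulk nuclei, a site that is open in few nuclei and a site that is weakly open in all of them cannot be told apart.

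**Figure D1:**
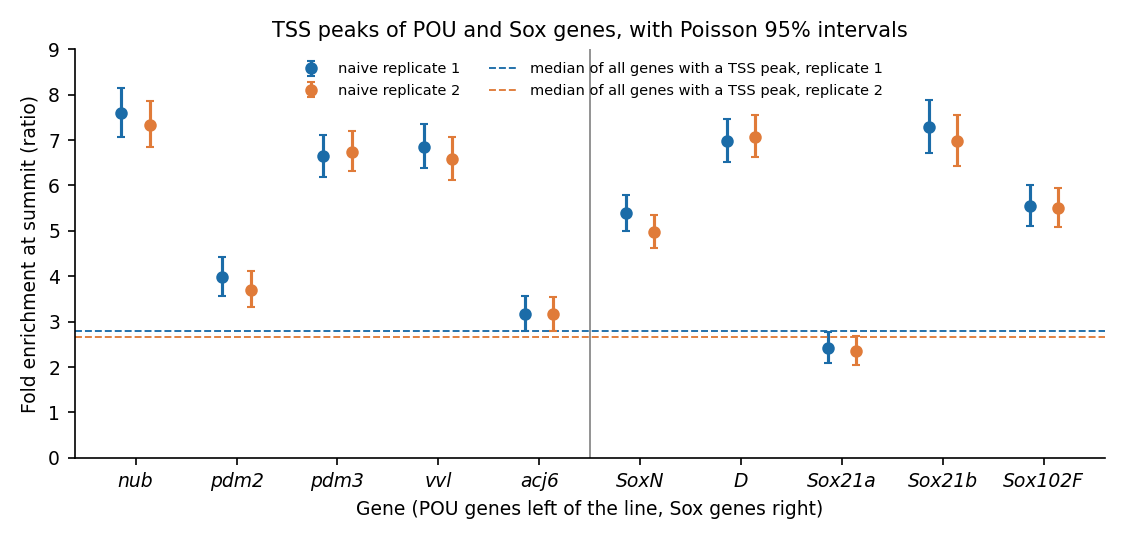
Fold enrichment at the summit of the TSS peak (a ratio, y axis) of the 5 POU genes and the 5 Sox genes (x axis) in naive replicates 1 and 2. Bars are exact Poisson 95% intervals of the pileup and dashed lines the medians over all genes with a TSS peak (2.80 and 2.66), and only Sox21a lies below both lines.

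The plot of fold enrichment by gene shows a group of 5 high genes, a pair of intermediate ones and 3 low ones. The high group was nub, Sox21b, D, vvl and pdm3, whose values ran between 6.65 and 7.60 in replicate 1 and between 6.58 and 7.34 in replicate 2. Their Poisson 95% intervals overlapped one another in each replicate, so their order was not resolved at this depth. Sox102F and SoxN came next, with overlapping intervals below those of the high group, and pdm2, acj6 and Sox21a were lowest. These intervals hold the background fixed and cover counting error only.

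The POU gene nub (FBgn0085424, chr2L:12587625-12628135, plus strand, dm6) encodes a factor of wing growth and of the timing of neuroblast divisions. Its TSS peak had a fold enrichment of 7.60 (95% interval 7.07 to 8.15) in replicate 1 and 7.34 (6.84 to 7.86) in replicate 2, from pileups of 774 and 818. It ranked 4 among 7997 genes in replicate 1 and 3 among 7995 in replicate 2, a percentile of 99.96 ± 0.0088 (SD, n = 2). The summit lay inside the gene, 147 and 158 bp upstream of an internal TSS, in an intron of nub that also overlaps an intron of Ref2.

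Its neighbour pdm2 (FBgn0004394, chr2L:12657165-12686306, plus strand) is a close relative that acts beside nub in neuroblasts. Its TSS peak was lower, at 3.98 (3.57 to 4.43) and 3.70 (3.32 to 4.13), with a percentile of 84.3 ± 1.82 (SD, n = 2). The strongest peak of the pdm2 window was not this one but a peak at chr2L:12655507-12656117, between nub and pdm2. It had a fold enrichment of 4.79 and 4.84, a percentile of 97.4 ± 0.598 (SD, n = 2) among all peaks of a replicate, and a summit 1261 and 1265 bp upstream of the outermost TSS of pdm2. The TSS peak of pdm2 stood at 91.2 ± 0.706 (SD, n = 2) on that scale.

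The POU gene pdm3 (FBgn0261588, chr2R:8327490-8396280, plus strand), which directs odorant receptor choice and axon targeting, had a TSS peak of 6.65 and 6.74 with pileups of 805 and 911. Its percentile was 99.8 ± 0.053 (SD, n = 2). The gene with the most peaks in its window was also pdm3, with 8 consensus peaks, that is merged regions with a peak in both replicates. Besides the TSS peak, these were 5 peaks with summits in introns, 1 in a coding exon of pdm3 and 1 in a coding exon of CG2121 at the 3′ end of pdm3. The intronic peak at chr2R:8335749-8337219 reached 4.36 and 3.92, and the CG2121 peak, at chr2R:8396106-8398001, reached 4.82 and 4.44. On the scale of all peaks these were percentiles of 93.8 ± 1.39 and 96.7 ± 0.711 (SD, n = 2 each), and the remaining peaks of the window lay lower.

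The POU gene vvl (FBgn0086680, chr3L:6790158-6794941, plus strand) is needed in tracheal cells and for the dendrite targeting of projection neurons. The fold enrichment of its TSS peak was 6.85 and 6.58 in replicates 1 and 2, with pileups of 792 and 762 and a percentile of 99.8 ± 0.053 (SD, n = 2). It was the only peak in the window of vvl. The summit stood at the same base in both replicates, 173 bp upstream of the TSS that all 5 annotated transcripts share.

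The POU gene acj6 (FBgn0000028, chrX:15350239-15379064, minus strand), which sets receptor choice in olfactory receptor neurons, stood apart from pdm3 and vvl. Its TSS peak had a fold enrichment of 3.16 in both replicates, with pileups of 264 and 282 and widths of only 340 and 402 bp. Its percentile was 65.0 ± 4.06 (SD, n = 2). The window held 7 consensus peaks, and 3 of them were at the TSSs of other genes, Prp5 and CG12608 on one side and CG9164 on the other. The highest peak in the window, at 3.31 and 3.17, was at a TSS of CG9164, and the intervals of this peak (2.97 to 3.68 and 2.83 to 3.53) overlapped those of the acj6 TSS peak (2.79 to 3.56 and 2.80 to 3.55).

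Among the Sox genes, SoxN (FBgn0029123, chr2L:8825645-8829670, plus strand), a gene of the neuroectoderm, had a TSS peak of 5.39 and 4.98, from pileups of 711 and 719, with a percentile of 97.8 ± 0.531 (SD, n = 2). This was the only peak in its window. D, or Dichaete (FBgn0000411, chr3L:14175610-14178620, minus strand), which acts in segmentation and in the nervous system, had one of the tallest peaks of the set, at 6.98 and 7.08. Its pileups of 870 and 919 were the highest of the 10 genes in both replicates, and its percentile was 99.9 ± 0.0354 (SD, n = 2). The summit of the D peak lay in an exon of its untranslated region, between its TSSs.

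Sox21a and Sox21b are adjacent genes of the SoxB group on chromosome arm 3L, and their TSS peaks were at opposite ends of the set. Sox21a (FBgn0036411, chr3L:14103481-14108118, minus strand), known for the differentiation of intestinal progenitors, had the lowest TSS peak, at 2.42 (2.099 to 2.78) in replicate 1 and 2.34 (2.04 to 2.68) in replicate 2. Its percentile was 35.8 ± 1.94 (SD, n = 2), and the peak was only 129 and 149 bp wide. Sox21b (FBgn0042630, chr3L:14112405-14131324, minus strand) had a TSS peak of 7.28 (6.72 to 7.88) and 6.97 (6.44 to 7.54), with a percentile of 99.9 ± 0.0265 (SD, n = 2). The windows of the pair shared 3 peaks, which were the Sox21a TSS peak and both intergenic peaks between the genes. The intergenic peak at chr3L:14109800-14110358 had 3.73 and 3.98, and that at chr3L:14111122-14112072 had 3.04 and 2.68. The first of these was higher than the Sox21a TSS peak in each replicate, with intervals (3.33 to 4.17 and 3.58 to 4.42) that did not overlap.

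Sox102F (FBgn0039938, chr4:800436-834393, minus strand), the SoxD gene of the fly, lies on the small and largely heterochromatic chromosome 4. Its TSS peak had a fold enrichment of 5.55 (5.12 to 6.02) and 5.50 (5.08 to 5.94), with a percentile of 98.7 ± 0.159 (SD, n = 2). It was the widest TSS peak of the 10 genes, at 1711 and 1695 bp. Of the set, only the high group exceeded it in both replicates.

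In the median, the TSS peaks of the 10 genes were narrower than those of all genes, with a higher pileup and a lower background. The TSS peaks of the 10 genes had median widths of 1031 and 1037 bp, against 1270 and 1243 bp over all genes with a TSS peak. Their median pileups were 660.5 and 679.5, against 355 and 347 over all genes. The background under the summits, worked out from the fold enrichment and the p-value, had a median of 104 and 113 in the 10 genes, against 126 and 131 over all genes. The lowest possible background was met at 4 of the 10 TSS peaks in each replicate, against 14.7% of all genes in replicate 1. These were the peaks of pdm2, acj6, Sox21a and Sox21b, of which only Sox21b is in the high group. A low background raises the fold enrichment by construction, and ranked by pileup alone the median percentile of the 10 genes was 90.03. On that scale nub stood at 96.2, pdm3 at 97.4, vvl at 95.7, D at 98.2 and SoxN at 93.1, while Sox21b stood at 86.9, Sox102F at 86.7, pdm2 at 45.8, acj6 at 31.8 and Sox21a at 14.6. The order of nub and D turned round between both scales.

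Several of these genes start at more than one promoter, and the TSS peak did not sit at each of them. TSSs over 500 bp apart were counted as separate clusters. Of the 10 genes, 5 had 2 or more clusters, against 2106 of all 13968 protein-coding genes. Of these 5 genes, 3 (pdm2, pdm3 and Sox102F) had a TSS peak in both replicates at some but not all clusters, and nub and D had one at each cluster. Over all genes with 2 or more clusters, 46.7% had peaks at some but not all of them (984 of 2106).

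**Figure D2:**
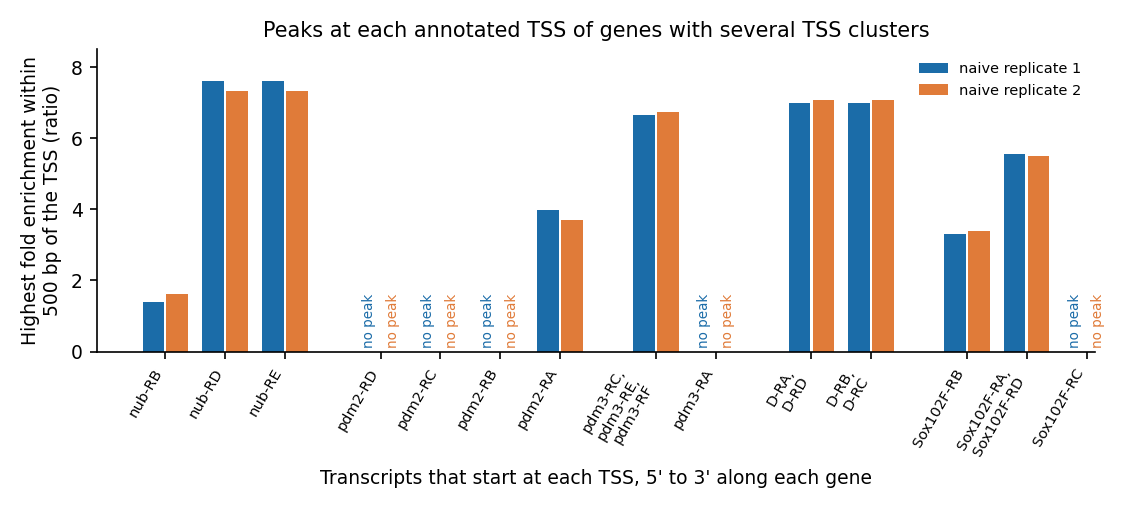
Fold enrichment (a ratio, y axis) of the strongest peak within 500 bp of each TSS of the 5 genes with 2 or more TSS clusters, in naive replicates 1 and 2, with transcript names on the x axis. At nub the internal start reached 7.60 and 7.34 while the outer start stayed at 1.39 and 1.61, and TSSs without such a peak are marked as no peak.

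At nub, the outer TSS belongs to nub-RB, which encodes the long protein of 961 amino acids, and the internal TSSs belong to nub-RD and nub-RE, which encode 601 amino acids. The peak near the nub-RB start had a fold enrichment of only 1.39 and 1.61 and lay 464 and 199 bp away. Its summits in the replicates were 265 bp apart, and its percentile among all peaks, 20.8 ± 19.9 (SD, n = 2), was poorly fixed. The peak at the internal starts, at 7.60 and 7.34, was the high one. Another consensus peak, at chr2L:12593792-12594562 with 3.27 and 3.28, lay in a coding exon of nub upstream of the internal starts.

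In pdm2 the TSS peak also sat at an internal start, that of pdm2-RA, which encodes 498 amino acids. Unlike at nub, this TSS peak was not the strongest peak of the window. The outer starts of pdm2-RB, pdm2-RC and pdm2-RD, which encode 893 amino acids, had no peak within 500 bp, and the nearest was the strong upstream peak described above, 1048 and 1066 bp from the pdm2-RD start. In pdm3 the outer start was the open one. It serves pdm3-RC, pdm3-RE and pdm3-RF, which encode 1273 to 1292 amino acids, whereas the internal start of pdm3-RA (994 amino acids) had its nearest peak 880 and 855 bp away, with 2.49 and 2.48. At Sox102F, the internal start of Sox102F-RA and Sox102F-RD (580 amino acids) had 5.55 and 5.50, the outer start of Sox102F-RB (618 amino acids) had 3.30 and 3.38, and the start of Sox102F-RC had its nearest peak 2927 and 2894 bp away. The intervals of the Sox102F peaks did not overlap in either replicate, with 2.98 to 3.65 and 3.07 to 3.72 at the outer start. D had a single peak for its starts, which covered that of D-RB and D-RC and ended 286 and 353 bp short of that of D-RA and D-RD. The nub-RB peak, at 464 bp in replicate 1, was the nearest to the 500 bp limit from the inside, and the small peak upstream of acj6, at chrX:15379685-15379794 and 627 and 621 bp from its TSS, the nearest from the outside. With the outermost TSS alone, the median percentile of the 10 genes was 85.3, with nub at 5.83, Sox102F at 72.6 and pdm2 without a TSS peak.

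**Figure D3:**
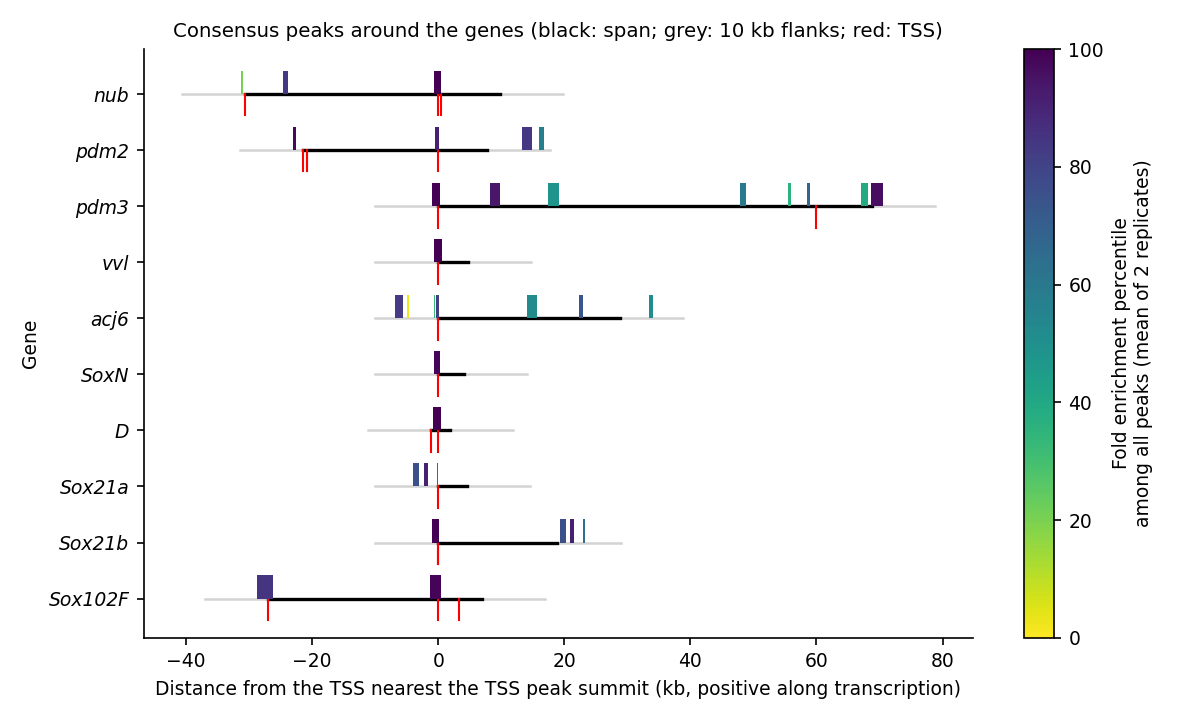
Consensus peaks in the window of each gene, plotted against the distance from the TSS nearest to the summit of its TSS peak, along transcription (kb, x axis), with black gene spans, grey flanks of 10 kb, red TSSs and colour for the mean fold enrichment percentile among all peaks. The windows of vvl, SoxN and D hold 1 consensus peak each and that of pdm3 holds 8.

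The map of consensus peaks shows windows that were thinly filled for their length at most of the genes. The 10 windows spanned 436.607 kb in sum and held 31 distinct consensus peaks, from 32 peaks in replicate 1 and 33 in replicate 2, with 3 further regions found in 1 replicate only. The median was 0.655 consensus peaks per 10 kb of window, against 1.32 over all genes and 1.498 over genes with a TSS peak. At acj6 it was 1.43, above the median over all genes. By number per window, the median was 3 in the 10 genes, 3 over all genes and 4 over genes with a TSS peak. A window with 1 consensus peak was found for 3 of the 10 genes (vvl, SoxN and D) and for 4.23% of the genes whose TSS peak was seen in each replicate (330 of 7803). The next peak outside the window of D began 10462 bp from the end of the gene, just past the limit of 10 kb, and that nearest to the window of Sox102F lay 10043 bp from its gene.

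Of the 31 consensus peaks, 12 lay within 500 bp of a TSS of the 10 genes, 5 at a TSS of another gene only and 14 near no protein-coding TSS. Their median percentiles among all peaks were 98.7 for the 12, 57.3 for the 5 and 70.2 for the 14. The 5 peaks at other genes were at CCT4 and CG6153, IFT43 and PICK1, Prp5 and CG12608, and CG9164, which had a pair of them. Introns of acj6 held peaks at chrX:15356114-15356757, with 2.80 and 2.69, and at chrX:15363439-15364964, with 2.06 and 1.90.

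The distance from the TSS peak to the nearest other consensus peak was long for most of the 10 genes. Its median was 15610 bp, against 2793 bp over all genes with a TSS peak. The longest was 62547 bp at SoxN, a percentile of 99.8 among all genes, followed by 28339 bp at vvl (99.0) and 23147 bp at nub (98.3). Sox21b (19169 bp), Sox102F (18034 bp), pdm2 (13186 bp) and D (10747 bp) lay between percentiles of 93.6 and 97.4, and pdm3 (7943 bp) at 89.2. Sox21a, with 1471 bp, and acj6, with 258 bp, were the genes below the median, and they also had the lowest TSS peaks. For acj6 this rests on the small upstream peak at chrX:15379685-15379794, which reached only 1.64 and 1.54. Its −log10 q was 6.44 and 4.92, so a limit of 5 in each replicate removes it. On that side, the next peak to pass this limit had its summit 6309 and 6347 bp from the acj6 TSS. Gaps were not recomputed at that limit.

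**Figure D4:**
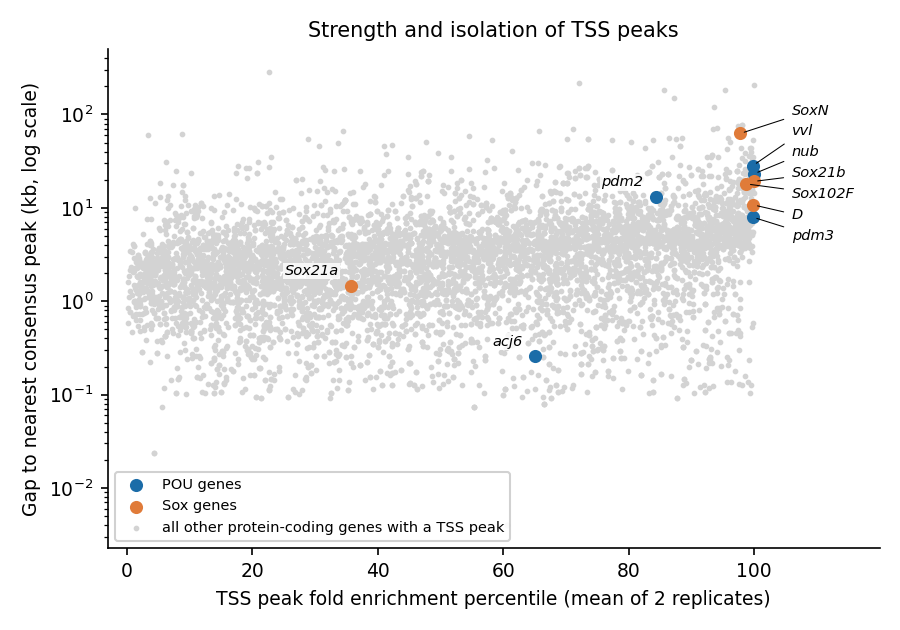
Gap from the TSS peak to the nearest consensus peak (kb, log scale, y axis) against the mean fold enrichment percentile of the TSS peak (x axis), for the POU genes, the Sox genes and all other protein-coding genes with a TSS peak (grey). Of the 10 genes, 8 lie above the all-gene median gap of 2793 bp, and 7 of these sit at the far right, at percentiles over 90.

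The summit of the TSS peak lay upstream of the nearest TSS in all 10 genes when averaged over the replicates, as in 59.4% of all genes (4637 of 7803). The median offset was -234.5 bp in the 10 genes, against -38 bp over all genes. Sox102F had the largest offset, at -638 and -659 bp, followed by Sox21b, at -455 and -481 bp, and D, at -385 and -369 bp. Sox21a had the smallest on average, at -152 and -139 bp. In nub, pdm2, D and Sox102F the nearest TSS is an internal one, so that these summits lie upstream of a start and inside the gene.

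The DNA at the summits was searched for 5 motifs on either strand, and the GA repeat was the one found near most of the TSS peak summits. It is the sequence to which the GAGA factor binds, and a match is a description of the letters only. Within 100 bp of the summit, GAGAGAG was found at 6 of the 10 TSS peaks (nub, pdm2, pdm3, D, Sox21a and Sox102F), against 9.48% of the 5508 distinct TSS peaks of all genes. The Sox21a peak is narrower than this window, and its repeat lay in the DNA beside the peak. Within 50 bp of the summit the repeat was found at 3 of the 10 TSS peaks (pdm3, D and Sox102F), against 5.92% of all consensus peaks. Anywhere in the peak it was found at 7 of the 10, all but acj6, SoxN and Sox21a, against 23.8% of all consensus peaks. The shares for 50 bp and for whole peaks are over all consensus peaks and not over TSS peaks alone. They are thus a less matched comparison than the share for 100 bp, and peak width was not matched. The EGR motif GTGGGCG was found at 2 of the 10 (pdm3 and Sox102F), against 3.36%. The octamer ATGCAAAT was found at 0 of the 10, against 1.85%, and so were the Sox motifs AACAATG or AACAAAG, against 9.55%, and the CRE motif TGACGTCA, against 0.49%. Farther from the summit, whole TSS peaks held a Sox motif in 4 of the 10 genes (nub, pdm3, vvl and D), against 37.8% of all consensus peaks. A CRE motif lay in 1 of them, pdm3, against 2.43% of all consensus peaks. Matches of GAGAGAG overlap one another in longer repeats, so peaks and not matches were counted. The bases within 100 bp of the summit are shown, from the RefSeq copy of dm6 and on the strand of the gene, for 5 summits with the repeat nearby and 2 without, with the GA repeat of either strand in capitals. The 2 shown without it, vvl and Sox21b, are from the high group, and the TSS peaks of SoxN and acj6, not shown, also lacked it.
nub TSS peak (chr2L:12618098-12618298, plus strand): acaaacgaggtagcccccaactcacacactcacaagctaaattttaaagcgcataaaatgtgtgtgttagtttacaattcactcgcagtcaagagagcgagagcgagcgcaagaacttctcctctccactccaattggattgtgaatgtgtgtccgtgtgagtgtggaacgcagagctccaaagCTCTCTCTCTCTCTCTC
pdm2 TSS peak (chr2L:12678287-12678487, plus strand): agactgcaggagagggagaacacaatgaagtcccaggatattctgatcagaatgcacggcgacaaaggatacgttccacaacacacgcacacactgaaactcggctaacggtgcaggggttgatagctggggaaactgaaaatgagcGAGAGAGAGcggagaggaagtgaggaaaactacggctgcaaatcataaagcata
pdm2 upstream peak (chr2L:12655804-12656004, plus strand): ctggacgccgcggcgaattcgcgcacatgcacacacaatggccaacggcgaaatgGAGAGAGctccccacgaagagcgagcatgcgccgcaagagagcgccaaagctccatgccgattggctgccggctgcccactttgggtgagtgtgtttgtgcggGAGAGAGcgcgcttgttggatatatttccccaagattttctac
Sox21a TSS peak (chr3L:14108170-14108370, minus strand): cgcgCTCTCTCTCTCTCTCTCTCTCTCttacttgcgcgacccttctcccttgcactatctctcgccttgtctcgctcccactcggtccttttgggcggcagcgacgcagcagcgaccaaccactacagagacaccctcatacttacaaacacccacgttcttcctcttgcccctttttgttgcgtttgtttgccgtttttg
Sox102F TSS peak (chr4:807885-808085, minus strand): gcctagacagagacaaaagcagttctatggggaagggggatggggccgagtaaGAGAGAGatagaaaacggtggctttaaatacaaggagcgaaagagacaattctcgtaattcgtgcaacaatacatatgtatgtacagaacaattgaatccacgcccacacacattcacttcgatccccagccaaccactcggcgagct
vvl TSS peak (chr3L:6789885-6790085, plus strand): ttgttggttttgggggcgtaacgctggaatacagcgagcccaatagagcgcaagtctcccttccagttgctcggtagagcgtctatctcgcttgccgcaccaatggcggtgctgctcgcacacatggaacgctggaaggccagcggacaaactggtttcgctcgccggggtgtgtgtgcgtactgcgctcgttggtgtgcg
Sox21b TSS peak (chr3L:14131679-14131879, minus strand): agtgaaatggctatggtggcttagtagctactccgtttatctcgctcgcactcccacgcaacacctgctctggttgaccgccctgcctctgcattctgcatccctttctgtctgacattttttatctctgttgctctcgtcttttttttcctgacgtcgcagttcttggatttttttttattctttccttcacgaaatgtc

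In these windows nub had 17 bases of GA repeat, made of 6 overlapping matches. Sox21a, the lowest TSS peak, had 23 bases made of 9 matches, at chr3L:14108344-14108366, while its peak, merged over the replicates, ended at 14108328. The upstream peak of pdm2 had 2 separate matches, 45 bp before and 58 bp after the summit, while its TSS peak had 9 bases of repeat. In vvl and Sox21b no GAGAGAG lay within 100 bp of the summit, although the whole peaks held matches farther out.

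Over all 31 consensus peaks of the windows, 10 had the GA repeat within 100 bp of the summit (32.3%), against 10.1% of all 11705 consensus peaks. These 10 include the 6 TSS peaks already counted above, Sox21a among them, so this is not a separate result. The EGR motif was at 4 (12.9% against 6.3%), the Sox motifs at 3 (9.68% against 9.31%) and the octamer at 1 (3.23% against 2.61%). The octamer peak was an intronic peak of pdm3, at chr2R:8375317-8376392, with 2 matches on the minus strand, 48 bp before and 55 bp after the summit. The Sox motif lay in the coding-exon peak of nub, in an intronic peak of pdm3 and just outside the small peak beside the acj6 TSS. These last shares rest on 1 to 4 peaks, and no test was made on them.

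Genes with related domains outside the set were read in the same way. Of the Sox genes outside the set, Sox14 had a TSS peak of 3.87 and 3.73 with a percentile of 83.6 ± 0.404 (SD, n = 2), Sox15 one of 2.25 and 2.29 with a percentile of 32.1 ± 4.65 (SD, n = 2), and Sox100B had no TSS peak in either replicate. Of 10 other genes with an HMG box, 9 had a TSS peak in both replicates, with a median percentile of 41.8 over the 10 (the one without a peak set to 0), and the highest was cic, at 95.9 ± 0.963 (SD, n = 2). No test was made between these lists and the 10 genes.

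Markers of the labelled cells and of other cell types were read as a check of the tissue. All 12 Kenyon cell markers had a TSS peak in both replicates, with a median percentile of 87.4 and a range of 68.5 to 98.5. TSS peaks in both replicates were found at 3 of 6 glial genes and 2 of 4 fat body genes, shares near the 55.9% of all genes. The glial genes with a peak were nrv2 (percentile 84.6), moody (40.6) and Eaat1 (28.9), and the glial marker repo had none. The count was 1 of 6 for photoreceptor genes (ninaE had none), 0 of 4 for genes of olfactory receptor neurons (Orco had a peak in replicate 1 only), 0 of 4 for muscle genes and 0 of 3 for blood cell genes. All 4 markers of antennal lobe projection neurons, in which vvl and acj6 act, had a TSS peak, at percentiles of 70.1 to 99.7. Their median of 93.0 was above the 87.4 of the Kenyon cell markers. The heights of TSS peaks thus did not set the Kenyon cell markers apart from these 4 markers. These 4 are transcription factor genes too, and the part that nuclei of such neurons may have in the peaks of vvl, acj6 and pdm3 was not tested.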

How the data were processed

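ATAC-seq peaks of 2 replicates of 1 group, naive MB nuclei, were analysed. According to the methods and the submitters' processing notes, the authors trimmed reads with Trimmomatic 0.39, aligned them to dm6 with Bowtie2 2.4.1, shifted them for Tn5, removed duplicates and reads of multiple loci, mitochondria and scaffolds, and called peaks per replicate with MACS2 2.1.2 at a q-value of 0.01 (minimum length 50, maximum gap 100). The deposited values were a fold enrichment (a ratio over a background from the same library, with a pseudocount of 1), the −log10 p and −log10 q, an integer score made from the −log10 q (not used) and the summit offset. The lists gave no read totals.

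Pileup and background were solved from the deposited fold enrichment and −log10 p, to within 0.0183 (replicate 1) and 0.0221 (replicate 2) of a whole number. Intervals are exact Poisson 95% intervals of the pileup. TSSs, transcripts and protein lengths came from Ensembl release 115, and sequences from the RefSeq genome of the same assembly. Peaks sharing at least 1 bp were merged, and regions with a peak in each replicate were called consensus peaks. A percentile gives the percent of values that are lower. Motifs were matched exactly on both strands around the summit of replicate 1. Named were all members, their TSS peaks and strongest other peaks, the other Sox and HMG-box genes, and genes at member peaks. A further few peaks were named after their values were seen. Python 3.11.15, numpy 2.4.6, scipy 1.17.1 and pandas 2.3.3 were used, and the code was tested on simulated data. The members and lists were chosen with earlier results of these data known. One sequence each of pdm3, D, SoxN and acj6 is not shown.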

Additional observations from a re-analysis of the deposited data

How the results depend on the processing

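The median TSS peak percentile of the 10 genes, 99.3, was 98.3 when ranked by −log10 q, 90.03 when ranked by summit pileup, 85.3 with the most upstream TSS only and 99.4 among all peaks. Without replicate 1 or 2 it ranged between 99.2 and 99.3. The 31 consensus peaks became 20 in the gene spans alone. Within single replicates the windows held 32 to 33 peaks. The median of 0.655 consensus peaks per 10 kb was 0.815 in the spans alone, 0.741 with 5 kb flanks, 0.606 with 20 kb flanks and 0.624 at a −log10 q of at least 5, and stayed at 0.655 with either replicate left out. The GA repeat, at 6 of the 10 TSS peaks within 100 bp of the summit, was at 3 within 50 bp and at 7 in whole peaks. Of the 31 consensus peaks, 10, 7 and 14 had it, against 10.1%, 5.92% and 23.8% of all consensus peaks. The octamer count, 1 within 100 bp, was 5 in whole peaks (16.1%, against 13.0% of all consensus peaks). The Sox motif count, 3, was 0 within 50 bp (against 4.67%) and 10 in whole peaks (32.3%, against 37.8%). The summit of replicate 2, an alternative chosen after seeing the data, left both counts as they were. A TSS peak that covers the TSS was found in both replicates for 8 of the 10 genes, the exceptions being Sox21a and acj6. Of 193 recomputed values, main values not included, 145 stayed within the spread between replicates or within 1.5 times the main count, and 48 moved.

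No paired analysis was possible because there was 1 group. With 2 replicates, an SD is itself uncertain, and no member had a test. Peak lists show no signal below the calling threshold, so a start without a peak is not shown to be closed. Fold enrichment depends on a background taken from the same library. Peaks of bulk nuclei do not show which cells are open, and accessibility is not expression.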

Other observations

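Of the 3 regions called in 1 replicate only, a pair lay in introns of pdm3 and the other in an exon of the untranslated region of CG9164, near acj6. Their fold enrichments were low, at 1.499 (pdm3, replicate 2), 1.38 (pdm3, replicate 1) and 1.40 (acj6 window, replicate 2).

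In whole peaks, the octamer ATGCAAAT also lay in the CG9164 promoter peak beside acj6 (2 matches), in the promoter peak of IFT43 and PICK1 beside pdm2, and in 2 more peaks of pdm3. The intronic peak of acj6 at chrX:15356114-15356757 held many GAGAGAG matches, and 3 of these lay within 100 bp of the summit. The TSS peak of pdm3 held GAGAGAG at 5 positions within 100 bp of the summit, the nearest 20 bp after it.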
